A study of Homo sapiens with 18 samples.

Results

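The 9 genes described here control how a cell senses, takes up and exports sterols: SREBF2, SREBF1, SCAP, INSIG1, INSIG2, STARD4, MYLIP, ABCA1 and ABCG1. They were listed by name from 3 branches of sterol homeostasis, and each was read from the probe set with the highest mean level for its symbol. All 9 were measured, each by 1 probe set, among 18417 genes. No filter on low values was applied, so all 9 stayed in every test.

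The cells were human umbilical vein endothelial cells (HUVEC), primary cells of the vessel lining, which the labels also call a normal endothelial cell line. RNA from 18 samples was hybridised to Affymetrix arrays, 3 arrays in each of 6 groups. The untreated group received nothing, and its labels give no time. The bead group received beads with IgG only, in place of vesicles. The other 4 groups received extracellular vesicles (EVs), membrane particles shed by cells, that had been captured on beads through CD63 or through MHC class 1 (MHC-1). The EVs came from Jurkat, a human leukaemic T cell line, or from JinB8, a Jurkat derivative without the surface receptor CD47. The groups are named here Jurkat CD63, Jurkat MHC-1, JinB8 CD63 and JinB8 MHC-1. The beads and EVs were left with the cells for 3 days. Conditioned media of the donor cells were pooled over flasks before the EVs were purified. The free text of 5 of the 6 JinB8 arrays carries other numbers after the stem JINB, while the bracketed names all say JINB8. The labels do not say whether replicates were grown separately. The p-values therefore cover only the spread between these arrays, which may be technical.

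Sterol synthesis and uptake are switched on by the SREBP transcription factors, which are made as precursors in the membrane of the endoplasmic reticulum. When sterols are low, SCAP escorts the precursor to the Golgi, where proteases release the active factor. When sterols are high, INSIG proteins hold SCAP back, and oxysterols activate the LXR receptors, which turn on the export pumps ABCA1 and ABCG1 and the ubiquitin ligase MYLIP. SREBP-2 is best known for the cholesterol genes and SREBP-1 for the fatty acid genes, and INSIG1 is itself a target of both. In endothelium this balance sets how much lipoprotein cholesterol is taken up and how much is passed on to HDL.

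In 2 control arrays the values were compressed. The standard deviation (SD) over all probe sets was 1.56 in untreated replicate 3 and 1.57 in bead replicate 3, against 2.01 to 2.25 in the other 16 arrays. Their median correlation with the other arrays was 0.649 and 0.636, and no pair of the 16 fell below 0.932. The main differences are therefore given in all 18 arrays and in the 16 without these 2. Jurkat MHC-1 replicate 1 had the lowest SD of the 16, and fits on 15 arrays leave it out as well. The 12 endothelial markers averaged 9.11 to 9.35 in the 16 arrays, and 7.02 and 6.13 in the 2 compressed ones. In the 16 arrays the 7 T cell markers averaged 3.55 to 3.91, the fibroblast markers 4.56 to 4.99, the monocyte markers 4.66 to 5.17 and the epithelial markers 3.90 to 4.57. These averages include single markers with higher levels: CD68 of the monocyte list (9.13 to 9.91), and ACTA2 (6.44 to 7.43) and COL1A1 (5.75 to 6.90) of the fibroblast list. Without detection calls, low values such as those of the T cell markers cannot be told apart from background. None of the 37 marker genes was called in the comparison of the EV groups with beads. In that comparison only 0.00543% of all genes were called in the 18 arrays and 0.0434% in the 16. The count therefore says little about the mix of cells. In the 16 arrays 2 of the 12 endothelial markers were positive, beside 54.1% of all genes, and 1 had an unadjusted p under 0.05 downward (limma). Levels and differences are on the log2 scale, where a difference of 1 is a doubling. In bulk RNA a change in the number of cells that express a gene and a change in RNA per cell cannot be told apart.

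The promoters of 3 of the genes are shown because all EV arrays lay above all control arrays for the first 2, and the third belongs to the efflux branch. They were searched, on both strands, for letters bound by the factors of this pathway. The motifs were the sterol regulatory element core TCACNCCAC, the E-box CACGTG, the NF-Y box CCAAT, the GC box GGGCGG and the LXR direct repeat (GGTCA followed by GGTCA with 5 bases between). The sequences are RefSeq windows of GRCh38.p14 of 300 bases around the annotated start, written 5′ to 3′ along the gene. Capitals mark the matches named after each sequence.
INSIG1, chr7:155297628-155297927, plus strand: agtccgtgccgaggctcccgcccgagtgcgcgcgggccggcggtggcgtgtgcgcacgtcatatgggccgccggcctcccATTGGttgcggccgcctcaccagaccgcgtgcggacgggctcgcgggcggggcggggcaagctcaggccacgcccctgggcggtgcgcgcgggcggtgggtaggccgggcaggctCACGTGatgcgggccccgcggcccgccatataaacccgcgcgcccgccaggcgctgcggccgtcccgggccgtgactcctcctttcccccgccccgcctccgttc
SREBF2, chr22:41832855-41833154, plus strand: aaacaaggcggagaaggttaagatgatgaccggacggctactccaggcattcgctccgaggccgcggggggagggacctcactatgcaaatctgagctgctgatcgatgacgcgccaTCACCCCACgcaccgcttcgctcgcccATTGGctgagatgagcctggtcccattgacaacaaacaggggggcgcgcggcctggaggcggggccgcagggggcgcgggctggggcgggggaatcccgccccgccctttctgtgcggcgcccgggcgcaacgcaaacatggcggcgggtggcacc
ABCA1, chr9:104928106-104928405, minus strand: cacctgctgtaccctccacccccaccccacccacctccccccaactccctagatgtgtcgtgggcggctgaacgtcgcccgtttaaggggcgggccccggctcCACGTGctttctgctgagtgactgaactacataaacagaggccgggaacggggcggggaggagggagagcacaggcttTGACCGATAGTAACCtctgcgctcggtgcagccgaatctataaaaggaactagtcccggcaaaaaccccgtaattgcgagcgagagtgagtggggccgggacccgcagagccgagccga
The capitals of INSIG1 are an NF-Y box at -170 to -166 and an E-box at -55 to -50, counted from the start base at 0. Those of SREBF2 are the sterol regulatory element core at -133 to -125 and an NF-Y box at -106 to -102. Those of ABCA1 are an E-box at -147 to -142 and, at -69 to -55, a second spelling of the direct repeat (GGTTA followed by GGTCA with 5 bases between). This spelling was searched after the promoters had been read. It reads on the strand opposite to the printed one, as do the NF-Y boxes of INSIG1 and SREBF2.

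The sterol regulatory element core was found in SREBF2 alone among the 8 genes with a window, and in 1.13% of 35116 promoter windows. E-boxes stood in INSIG1, SCAP and ABCA1, against 7.26% of all windows. NF-Y boxes stood in INSIG1, SREBF2, STARD4 and MYLIP, against 34.6%. All 8 held a GC box, which 45% of windows hold, and none held the first direct repeat (0.0854% of windows). The second spelling occurred in 0.0513% of windows. No match overlapped a match of another motif, although GC boxes overlapped each other in INSIG1 and SREBF2. The 8 matched genes were all but ABCG1. A match is only a string of letters in a window of 300 bases, and its absence says nothing about a factor.

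**Figure D1:**
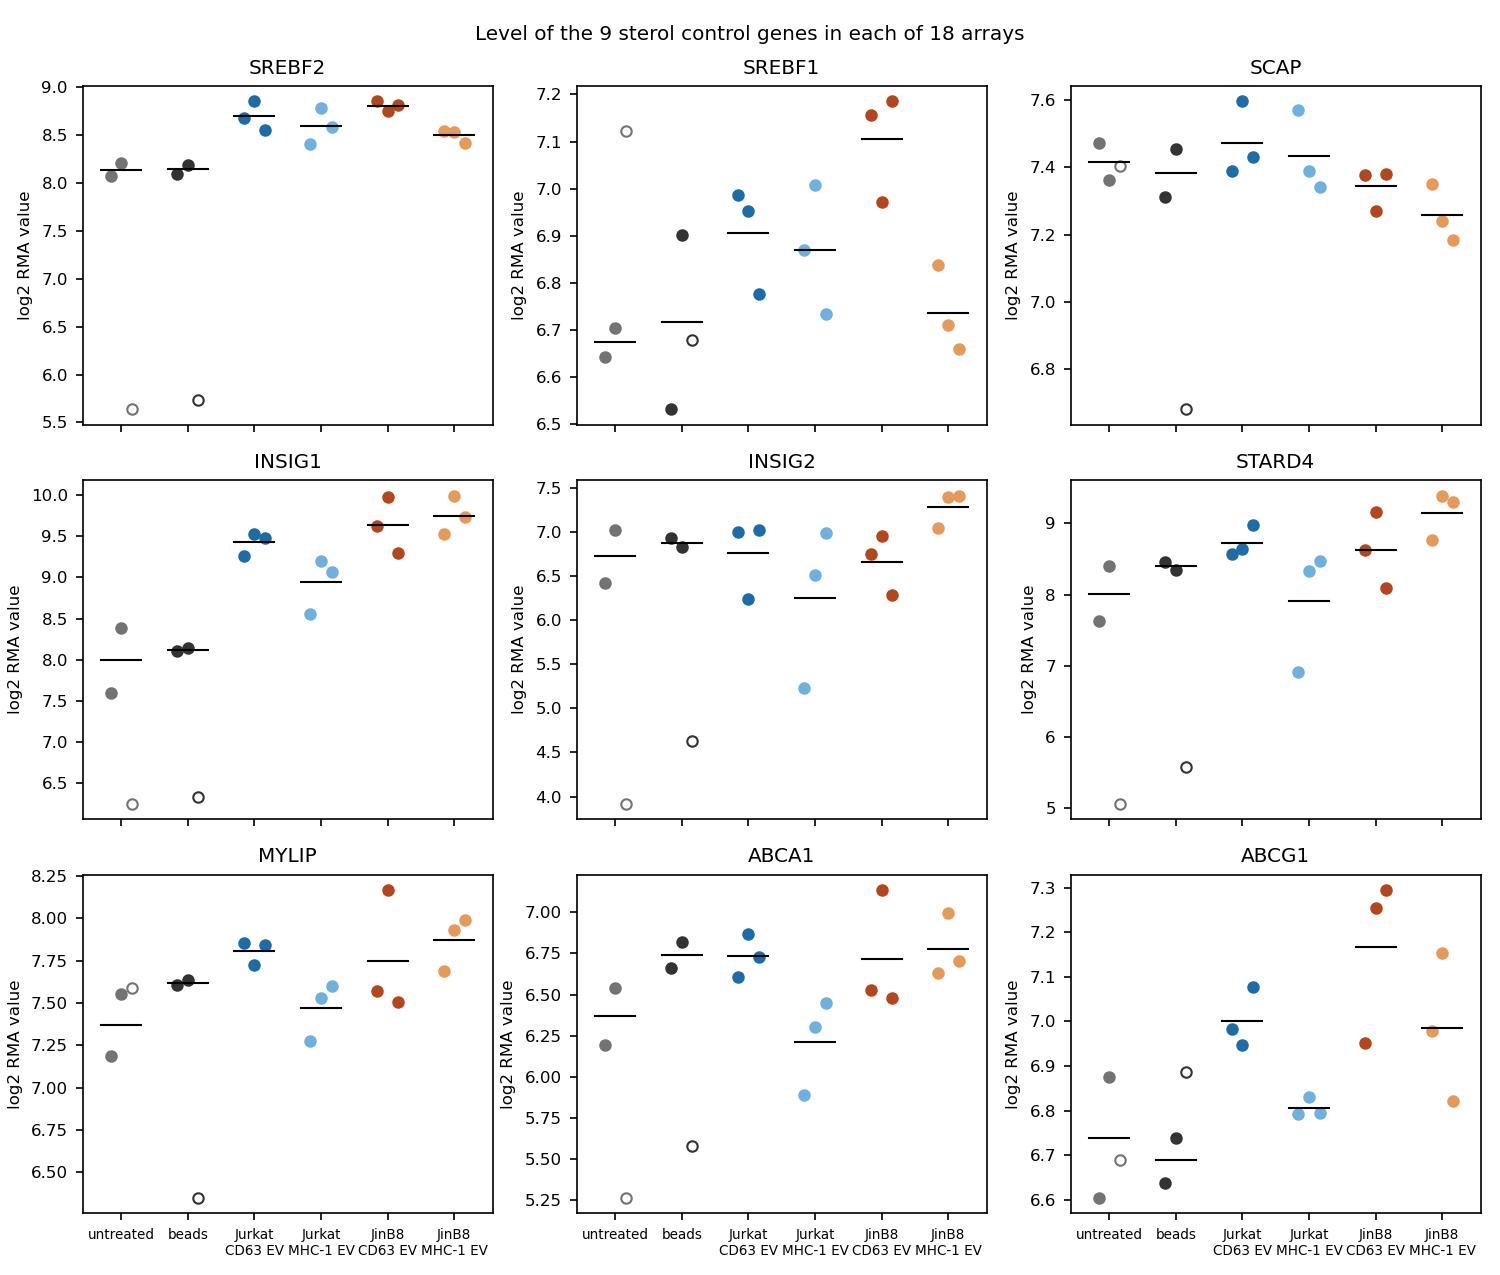
Level of each of the 9 genes (log2 RMA value, y axis, a separate scale per gene) in the 6 groups (x axis). Each point is 1 array, hollow points are untreated replicate 3 and bead replicate 3, and bars are group means over the filled points. All 12 EV arrays lie above all control arrays for SREBF2 and INSIG1.

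SREBF2, the gene of SREBP-2, was higher with EVs of every kind. In untreated cells its levels were 8.07, 8.21 and 5.64, and with beads 8.09, 8.19 and 5.74, the last value of each being the compressed array. They were 8.68, 8.85 and 8.55 with Jurkat CD63 EVs and 8.41, 8.78 and 8.59 with Jurkat MHC-1 EVs. With JinB8 CD63 EVs they were 8.85, 8.76 and 8.82, and with JinB8 MHC-1 EVs 8.54, 8.54 and 8.42. The 12 EV arrays (8.41 to 8.85) thus lay above all 6 control arrays (at most 8.21), a pattern seen in 10 of 18417 genes (0.0543%), and in 17 (0.0923%) when the compressed arrays were left out. The untreated and bead arrays did not separate.

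INSIG1, which retains the SCAP and SREBP complex and is a target of SREBP, had the largest difference of the 9. Its levels were 7.59, 8.38 and 6.25 in untreated cells and 8.10, 8.14 and 6.33 with beads. They were 9.27, 9.53 and 9.48 with Jurkat CD63 EVs and 8.56, 9.20 and 9.06 with Jurkat MHC-1 EVs. With JinB8 CD63 EVs they were 9.62, 9.98 and 9.30, and with JinB8 MHC-1 EVs 9.52, 9.99 and 9.74. Again the 12 EV arrays (8.56 to 9.99) all lay above the 6 control arrays (6.25 to 8.38). Over the 16 arrays the group means were, from lowest to highest, untreated (7.99), beads (8.12), Jurkat MHC-1 (8.94), Jurkat CD63 (9.43), JinB8 CD63 (9.63) and JinB8 MHC-1 (9.75). The ranges of neighbouring groups overlapped except between beads and Jurkat MHC-1 and between Jurkat MHC-1 and Jurkat CD63.

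The comparison of the 4 EV groups with beads asks what the vesicles share beyond their carrier. In the 18 arrays none of the 9 genes passed an adjusted p of 0.05 (limma, Benjamini and Hochberg over all genes), where 1 gene of 18417 did (0.00543%). INSIG1 was 1.91 ± 0.39 above beads (SE, 12 EV against 3 bead arrays; adjusted p = 0.525), SREBF2 1.31 ± 0.49 (adjusted p = 0.525) and STARD4 1.14 ± 0.63. All 9 differences were positive with a median of 0.53, and 3 genes (INSIG1, SREBF2 and MYLIP) had an unadjusted p under 0.05, as 2.08% of all genes did upward, while 45.0% of all genes were positive with a median of -0.06. These values include bead replicate 3, in which 6 of the 9 genes (all but SREBF1, SCAP and ABCG1) stood more than 1 unit below both other bead arrays. The share of all genes with such a drop was not counted. The endothelial markers also averaged lower there (6.13, against 9.32 and 9.34 in the other bead arrays), so the drop was not confined to the 9 genes.

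In the 16 arrays INSIG1 rose by 1.32 ± 0.21 (adjusted p = 0.0319), which is 2.49-fold (95% confidence interval 1.83 to 3.38). It was 1 of 5 genes that rose, among 8 called in either direction (0.0271% and 0.0434% of genes). SREBF2 stood 0.51 ± 0.11 above beads (1.42-fold; adjusted p = 0.316). The median of the 9 was 0.19 with 6 positive, beside 0.01 and 54.1% for all genes. The INSIG1 call rested on 2 bead arrays and was lost without bead replicate 1 or 2 (adjusted p = 1.00 and 0.507). It was also lost without Jurkat MHC-1 replicate 2, Jurkat CD63 replicate 2 or 3, JinB8 CD63 replicate 1, or JinB8 MHC-1 replicate 2 or 3 (adjusted p = 0.0567 to 0.0773). The difference itself stayed between 1.27 and 1.36 in these fits.

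With the mean of both control groups as the baseline, INSIG1 rose by 1.38 ± 0.16 in the 16 arrays (adjusted p = 8.48e-04), the largest difference of all 18417 genes. SREBF2 rose by 0.51 ± 0.08 (adjusted p = 0.0244) and ranked 50 of 18417. The 2 were among 8 genes called upward (0.0434%) and 23 in either direction (0.125%). Leaving out any 1 of the 16 arrays kept the INSIG1 call (adjusted p = 7.75e-05 to 0.0159, difference 1.18 to 1.58). The SREBF2 call was lost without untreated replicate 1 or 2 or bead replicate 1 or 2 (adjusted p = 0.176, 0.117, 0.284 and 0.103). It was also lost without Jurkat CD63 replicate 1, JinB8 CD63 replicate 1, or JinB8 MHC-1 replicate 1 or 2 (adjusted p = 0.0518 to 0.0678), with the difference between 0.48 and 0.54 throughout. In the 18 arrays the values against both controls were 1.97 ± 0.30 for INSIG1 (adjusted p = 0.0934) and 1.33 ± 0.38 for SREBF2 (adjusted p = 0.272), where 0.00543% of genes were called. The 2 baselines share the bead arrays, so they are not separate evidence.

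**Figure D2:**
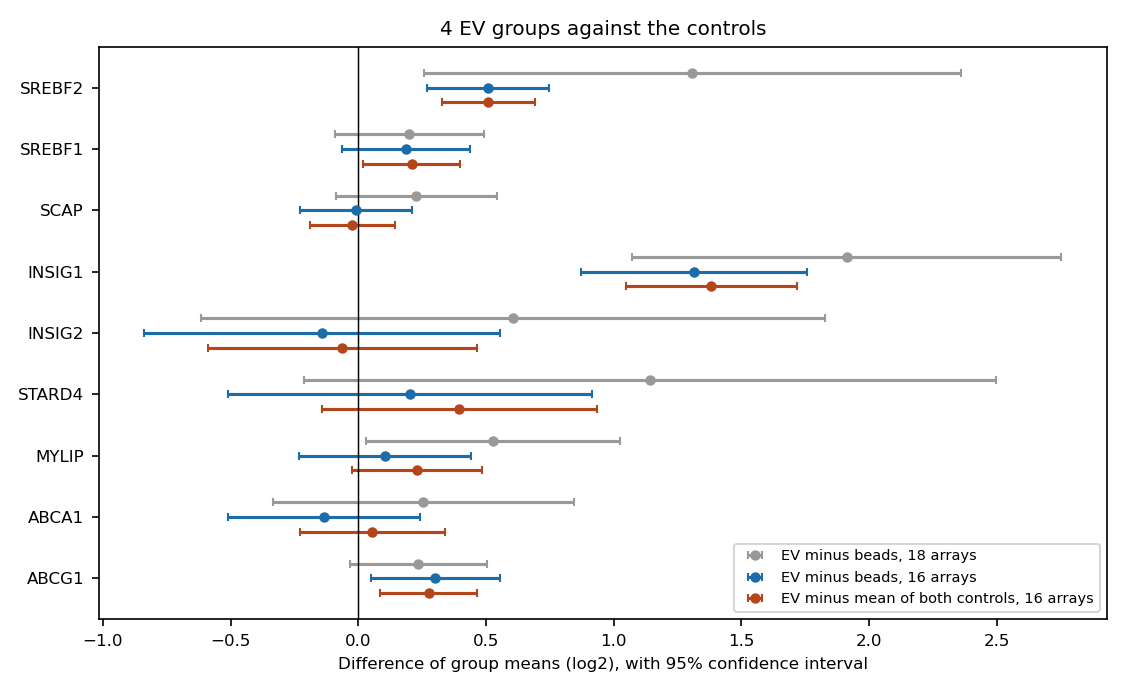
Difference between the mean of the 4 EV groups and the controls (log2, x axis) for each of the 9 genes, as points with 95% confidence intervals, for 3 fits. In the 16 arrays the intervals against beads lie above 0 for INSIG1 (0.87 to 1.76), SREBF2 (0.27 to 0.75) and ABCG1. Those of INSIG2, SCAP and ABCA1 include 0. Against both controls 4 of the 9 intervals lie above 0 in the 16 arrays.

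None of the other members of the SREBP machinery was called. SREBF1, the gene of SREBP-1, lay at 6.64, 6.70 and 7.12 in untreated cells and at 6.53, 6.90 and 6.68 with beads. With JinB8 CD63 EVs it lay at 7.16, 6.97 and 7.19, and the other 9 EV arrays ranged from 6.66 to 7.01. EV and control arrays overlapped. The difference from beads was 0.19 ± 0.12 in the 16 arrays (adjusted p = 0.999) and 0.20 ± 0.14 in the 18. Against both controls SREBF1 stood 0.21 higher in the 16 arrays, ranking 510 of 18417 genes by difference, and was not called. In the 18 arrays it was 1.32-fold above beads with JinB8 CD63 EVs (95% confidence interval 1.02 to 1.71). The folds were 1.15 with Jurkat CD63 EVs (interval 0.89 to 1.49) and 1.02 with JinB8 MHC-1 EVs (interval 0.79 to 1.32). SCAP, the escort protein, was at 7.18 to 7.59 in the 12 EV arrays and at 7.31 to 7.47 in the 4 controls of the 16-array set. Its difference from beads in the 16 arrays was -0.01 ± 0.10, with a 95% confidence interval of -0.23 to 0.21. INSIG2, the second retention protein, ranged from 5.23 to 7.41 with EVs and from 6.42 to 7.02 in those controls. Its difference from beads in the 16 arrays was -0.14 ± 0.33 (interval -0.84 to 0.56). INSIG2, SCAP and ABCA1 had differences of 0.61, 0.23 and 0.26 in the 18 arrays, which changed sign when the compressed arrays were left out.

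The host genes SREBF2 and SREBF1 each carry a microRNA of the miR-33 family in an intron. These microRNAs are known to act on the mRNA of ABCA1, and they are shown because both share 1 seed (bases 2 to 8, in capitals).
hsa-miR-33a-5p, in SREBF2, chr22:41900949-41900969, plus strand: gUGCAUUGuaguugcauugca
hsa-miR-33b-5p, in SREBF1, chr17:17813897-17813916, minus strand: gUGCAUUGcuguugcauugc
Both are RefSeq sequences (GRCh38.p14). The precursor MIR33A was on the array and stood 0.12 ± 0.15 above beads in the 16 arrays (adjusted p = 0.999). A probe set for a precursor does not measure the mature form, and MIR33B was not analysed here.

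STARD4, a soluble carrier that moves sterol between membranes and is a target of SREBP-2, passed the test in neither the 18 nor the 16 arrays. Its levels were 7.62, 8.40 and 5.06 in untreated cells and 8.45, 8.35 and 5.58 with beads. They were 8.57, 8.64 and 8.98 with Jurkat CD63 EVs and 6.92, 8.33 and 8.47 with Jurkat MHC-1 EVs. With JinB8 CD63 EVs they were 8.62, 9.15 and 8.09, and with JinB8 MHC-1 EVs 8.77, 9.39 and 9.29. Of the 12 EV arrays, 9 lay above every control array of the 16, and 1 lay below them all. The difference from beads was 0.20 ± 0.33 (interval -0.51 to 0.92; adjusted p = 0.999), and from both controls 0.40 ± 0.25 (adjusted p = 1.00). Leaving out Jurkat MHC-1 replicate 3 or 1 changed the difference from beads to 0.13 or 0.33, and leaving out untreated replicate 1 changed that from both controls to 0.20, each a move of over 1.5 times.

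The level of STARD4 moved with the spread of the array it was read on. In each of the 4 EV groups the array with the lowest SD had the lowest STARD4, INSIG1 and ABCA1 of its group, and in 3 of the 4 the lowest INSIG2 and MYLIP. Jurkat MHC-1 replicate 1, with an SD of 2.01, held the lowest STARD4 (6.92), INSIG2 (5.23) and ABCA1 (5.89) of the 16 arrays. SREBF1 and SCAP went the other way and were highest on the lowest-SD array in 3 of the 4 groups. The share of all genes that follow the array SD in either way was not counted. These counts therefore do not set the named genes apart from other genes. With the array SD as a covariate, STARD4 was 0.60 ± 0.10 above both controls (adjusted p = 0.00499; 0.999% of all genes called) and 0.48 ± 0.13 above beads (adjusted p = 0.276). In the same fit INSIG1 was 1.44 ± 0.14 above beads (adjusted p = 4.30e-05) and SREBF2 0.52 ± 0.10 (adjusted p = 0.0391), with 0.282% of all genes called. What sets the SD of an array was not tested.

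**Figure D3:**
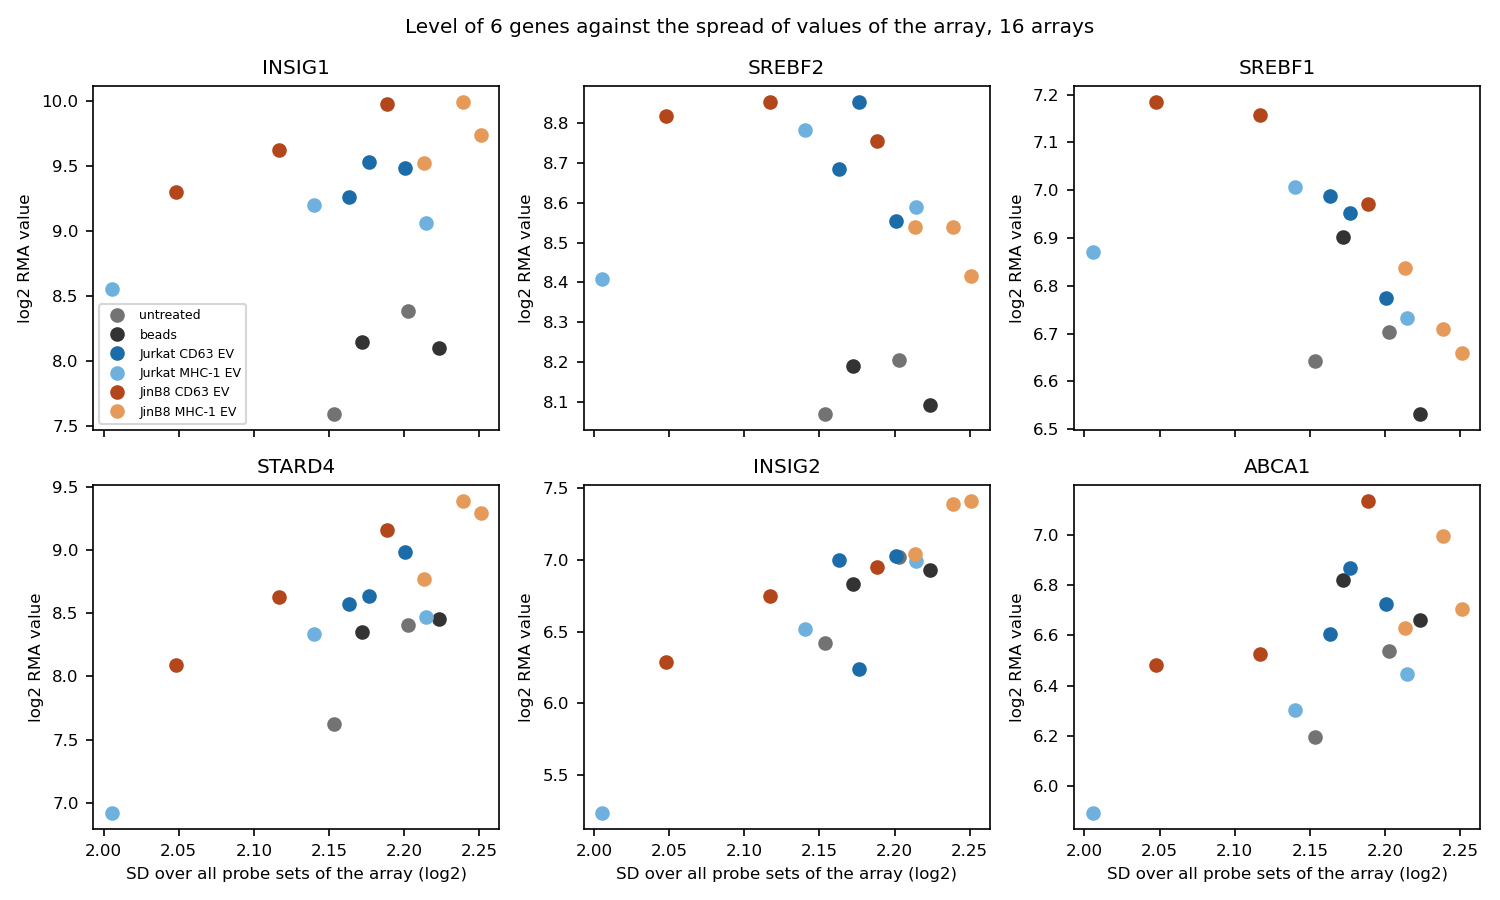
Level of 6 genes (log2 RMA value, y axis) against the SD over all probe sets of the array (log2, x axis), 1 point per array and coloured by group, for the 16 arrays. STARD4 and INSIG2 are lowest on the array with the lowest SD (2.01), whereas SREBF2 and INSIG1 separate the EV arrays from the 4 controls, whose SDs (2.15 to 2.22) lie within the range of the EV arrays.

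MYLIP, the ligase that marks receptors of the LDL receptor family for degradation, was at 7.28 to 8.17 with EVs and at 7.19 to 7.64 in the 4 controls of the 16-array set. Its difference from beads was 0.10 ± 0.16 (interval -0.23 to 0.44). The bead array left out stood at 6.35, and with it the difference was 0.53 ± 0.23 (adjusted p = 0.525). The untreated array left out stood at 7.59, beside 7.19 and 7.55 in the other untreated arrays.

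The 2 export pumps differed in how their arrays fell. ABCA1, which loads cholesterol onto lipid-poor apolipoprotein A-I, was at 6.20, 6.54 and 5.26 in untreated cells and at 6.66, 6.82 and 5.58 with beads. It was at 5.89, 6.30 and 6.45 with Jurkat MHC-1 EVs, and the other 9 EV arrays lay between 6.48 and 7.14. EV and control arrays overlapped, with a difference from beads of -0.13 ± 0.18 (interval -0.51 to 0.24; adjusted p = 0.999). ABCG1, which exports cholesterol to mature HDL, was at 6.60, 6.87 and 6.69 in untreated cells and at 6.64, 6.74 and 6.89 with beads. With JinB8 CD63 EVs it was at 6.95, 7.25 and 7.29, and the other 9 EV arrays lay between 6.79 and 7.15. In the 16 arrays all 12 EV arrays were above both bead arrays, as in 162 genes (0.88%), but not above untreated replicate 2, and bead replicate 3 overlapped them. The difference from beads was 0.30 ± 0.12 in the 16 arrays (unadjusted p = 0.0223; adjusted p = 0.999), 0.24 ± 0.13 in the 18, and from both controls 0.28 ± 0.09 (unadjusted p = 0.00753; adjusted p = 0.570).

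Each EV group was then set against beads separately. A call with some EV groups and not with others does not show that donor line or capture marker mattered. The EV groups are compared with each other directly below. These 4 comparisons share the bead arrays. In the 18 arrays no gene of the 9 was called in any of them, where 0 to 8 genes of 18417 were (at most 0.0434%). In the 16 arrays INSIG1 rose by 1.63 ± 0.25 with JinB8 MHC-1 EVs (adjusted p = 0.00999; 3.10-fold) and by 1.51 ± 0.25 with JinB8 CD63 EVs (adjusted p = 0.0329; 2.85-fold). The shares of genes called upward in these were 0.195% and 0.0271%. INSIG1 was 1.30 ± 0.25 above beads with Jurkat CD63 EVs (adjusted p = 0.307) and 0.82 ± 0.25 with Jurkat MHC-1 EVs (adjusted p = 0.467). SREBF2 stood 0.67 ± 0.13, 0.56 ± 0.13, 0.45 ± 0.13 and 0.36 ± 0.13 above beads with JinB8 CD63, Jurkat CD63, Jurkat MHC-1 and JinB8 MHC-1 EVs, none past the threshold (adjusted p = 0.118 for the first). ABCG1 was 0.48 ± 0.14 above beads with JinB8 CD63 EVs (adjusted p = 0.470). ABCA1 differed from beads by -0.53 ± 0.21 with Jurkat MHC-1 EVs (interval -0.98 to -0.08; adjusted p = 0.467), and by -0.37 without Jurkat MHC-1 replicate 1.

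Single arrays decided some of these calls. For JinB8 MHC-1 EVs the INSIG1 call was lost without bead replicate 1 or 2 or JinB8 MHC-1 replicate 2 (adjusted p = 0.129, 0.189 and 0.069). For JinB8 CD63 EVs it held in 6 of 16 fits. It was lost without bead replicate 1 (adjusted p = 0.834) or 2 (0.225), any JinB8 CD63 or JinB8 MHC-1 array, or Jurkat CD63 replicate 1 or 3 (0.0524 to 0.126). Without Jurkat MHC-1 replicate 1, which lies outside these contrasts and only adds to the pooled spread, INSIG1 with Jurkat CD63 EVs and SREBF2 with JinB8 CD63 EVs were called as well (adjusted p = 0.047 and 0.0233), beside 0.038% and 0.0977% of all genes called upward. A moderated F test over all 6 groups called INSIG1 in the 16 arrays (adjusted p = 0.00703; 0.233% of genes called) and in the 15 arrays also SREBF2 (adjusted p = 0.0191; 0.662% of genes called).

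**Figure D4:**
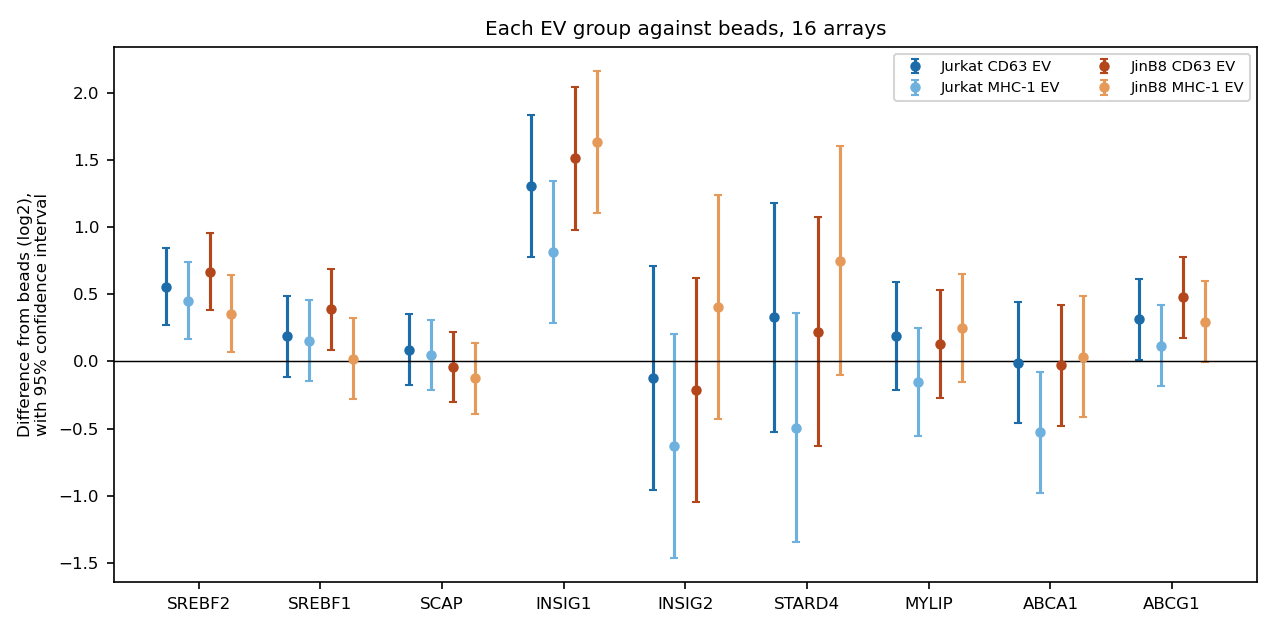
Difference of each EV group from beads (log2, y axis) for the 9 genes in the 16 arrays, as points with 95% confidence intervals and coloured by EV group. The 4 intervals of INSIG1 and of SREBF2 lie above 0, those of SCAP, INSIG2 and STARD4 include 0, and that of ABCA1 with Jurkat MHC-1 EVs lies below 0 (-0.98 to -0.08).

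Beads alone were compared with untreated cells as the background of the design. No gene of the 9 was called and none had an unadjusted p under 0.05 in either set of arrays; over all genes limma called 0, with 1.11% at an unadjusted p under 0.05 in the 18 arrays and 188 genes (1.02%) in the 16. SREBF2 differed by 0.00 ± 0.15 (interval -0.31 to 0.32) and INSIG1 by 0.13 ± 0.27 (interval -0.45 to 0.71). The largest difference was 0.39 ± 0.44 for STARD4.

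The EV groups were compared with each other without the control arrays entering the difference. With MHC-1 capture, JinB8 EVs stood above Jurkat EVs by 1.24 ± 0.36 for STARD4 (adjusted p = 0.0924), 1.03 ± 0.35 for INSIG2 (adjusted p = 0.106), 0.81 ± 0.22 for INSIG1 (adjusted p = 0.0865) and 0.56 ± 0.19 for ABCA1 (adjusted p = 0.104) in the 16 arrays. None of the 9 was called, while 71 genes were (0.386%) and 29.6% of all genes had an unadjusted p under 0.05. Without Jurkat MHC-1 replicate 1 the 4 differences were 0.75, 0.53, 0.62 and 0.40. With the array SD as a covariate they were 0.33, 0.20, 0.39 and 0.20. The SD was 2.01 to 2.21 in the Jurkat MHC-1 arrays and 2.21 to 2.25 in the JinB8 MHC-1 arrays. With CD63 capture the same comparison gave 0.21 ± 0.22 for INSIG1 and -0.11 ± 0.36 for STARD4, and none of the 9 had an unadjusted p under 0.05, which 4.02% of all genes had. The difference between the 2 captures in the effect of the donor line was -0.61 ± 0.31 for INSIG1 (adjusted p = 0.20) and -1.35 ± 0.51 for STARD4 (adjusted p = 0.143), where 0.0163% of genes were called.

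Between captures, JinB8 CD63 EVs stood above JinB8 MHC-1 EVs by 0.37 ± 0.13 for SREBF1 (adjusted p = 0.233) and by 0.31 ± 0.12 for SREBF2 (adjusted p = 0.261). None of the 9 was called there, where 34 genes were (0.185%). For INSIG2 and STARD4 the differences were -0.62 ± 0.35 and -0.53 ± 0.36, and with the array SD as a covariate 0.24 ± 0.21 and 0.41 ± 0.17, so their direction turned. Within Jurkat, CD63 EVs stood above MHC-1 EVs by 0.82 ± 0.36 for STARD4, 0.52 ± 0.19 for ABCA1 and 0.49 ± 0.22 for INSIG1, each with an unadjusted p under 0.05 (as 11% of all genes had) and an adjusted p of 0.415, and by 0.10 ± 0.12 for SREBF2. None of the 9 was called, and 0.00543% of all genes were. Without Jurkat MHC-1 replicate 1 these differences were 0.33, 0.36, 0.30 and 0.01. In the 18 arrays no adjusted p of the 9 genes fell below 0.923 in any comparison among EV groups.

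Among the 9 genes themselves, 2 patterns could be seen over the 16 arrays, given as a description because the arrays share their groups and their spread. SREBF2 correlated with INSIG1 (Pearson's r = 0.793), SREBF1 (0.788) and ABCG1 (0.691). STARD4, MYLIP, ABCA1 and INSIG2 correlated with each other (0.675 to 0.887), and SCAP was inverse to all 4 (-0.793 to -0.454). The genes whose pattern over the 16 arrays was most like that of INSIG1 were SCD, a fatty acid desaturase (r = 0.963), MSMO1 and LSS, enzymes of sterol synthesis (0.944 and 0.941), LPIN1, a phosphatidate phosphatase (0.942), and FADS2, a fatty acid desaturase (0.938). For ABCG1 they were APOLD1 (0.867), STC1 (0.855), TBC1D2 (0.850), DUSP4 (0.849) and SNORD115-25 (0.838). For STARD4 they were TMEM135 (0.983), LIPA, the lysosomal acid lipase (0.976), TMEM267 (0.973), ATG7 (0.965) and YIPF4 (0.964). For ABCA1 they were KITLG (0.920), MBIP (0.916), CUL4B (0.907), IARS2 (0.906) and RPAP2 (0.897).

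The wider pathway was described through lists of genes outside the 9, with values for the comparison of EVs with both controls in the 16 arrays. Of 16 sterol synthesis genes measured, 2 rose, none fell and 15 were positive, with a median of 0.77. Over all genes 0.0434% rose, 50.9% were positive and the median was 0.00. DHCR7, the reductase of the last step, rose by 0.99 ± 0.10 (adjusted p = 3.21e-04) and MSMO1 by 1.196 ± 0.20 (adjusted p = 0.0288). FDPS, the farnesyl diphosphate synthase, stood 0.67 ± 0.13 higher and TM7SF2, a sterol reductase, 0.56 ± 0.13, without passing (adjusted p = 0.0632 and 0.181). Of 11 fatty acid genes, 3 rose and all 11 were positive (median 0.47): FASN, the fatty acid synthase, by 1.01 ± 0.10, FADS2 by 0.82 ± 0.08 and SCD by 1.10 ± 0.15 (adjusted p at most 0.0039). FADS1, a fatty acid desaturase, stood 0.62 ± 0.13 higher (adjusted p = 0.102). With beads as the only baseline 1 sterol gene and 2 fatty acid genes rose, beside 0.0271% of all genes, with medians of 0.74 and 0.40.

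The lists of SREBP processing, uptake and efflux held no called gene, beside 0.125% of all genes called in either direction. With so small a share, lists of this size would hold few or none, so the count does not set them apart. In the 15 arrays 1 uptake gene rose against both controls, beside 11 sterol synthesis genes, 4 fatty acid genes and 0.157% of all genes. The values below are again from the 16 arrays. The 9 genes of SREBP processing and sterol-regulated degradation had a median of 0.04 and spanned -0.23 to 0.07, from ERLIN1, an endoplasmic reticulum protein of regulated degradation, to FBXW7, which targets nuclear SREBP for degradation. Between them lay RNF145 at -0.04 ± 0.14 and ERLIN2 at 0.01 ± 0.08. The 13 genes of sterol uptake, trafficking and storage had a median of 0.07. Among them NPC1, which releases cholesterol from lysosomes, stood 0.44 ± 0.17 higher, SCARB1, the HDL receptor, 0.23 ± 0.08, and LRP8, a lipoprotein receptor, 0.20 ± 0.09 (unadjusted p = 0.0197, 0.0114 and 0.0318; adjusted p at least 0.677). OSBP, the oxysterol-binding protein, was at -0.06 ± 0.08. The 9 other LXR targets had a median of 0.06 with 6 positive. PLTP, the phospholipid transfer protein, was at -0.26 ± 0.14 (unadjusted p = 0.0958), LPCAT3 at 0.25 ± 0.23, the sterol exporter ABCG8 at 0.14 ± 0.09 and APOE at 0.08 ± 0.12. Of the receptors, NR1H3 (LXR alpha) was at -0.09 ± 0.12, RXRA at 0.08 ± 0.11 and RXRB at 0.11 ± 0.11. The oxysterol-making enzymes were at -0.03 ± 0.12 (CYP27A1), -0.02 ± 0.11 (CYP46A1), 0.01 ± 0.12 (CH25H) and 0.19 ± 0.15 (CYP7B1). In the 18 arrays no gene of any of these lists was called against both controls, where 0.00543% of all genes were. The medians there were 1.38 for sterol synthesis, 1.41 for fatty acid synthesis and 0.62 for SREBP processing. They were 0.54 for uptake and -0.26 for the other LXR targets, beside -0.09 for all genes.

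**Figure D5:**
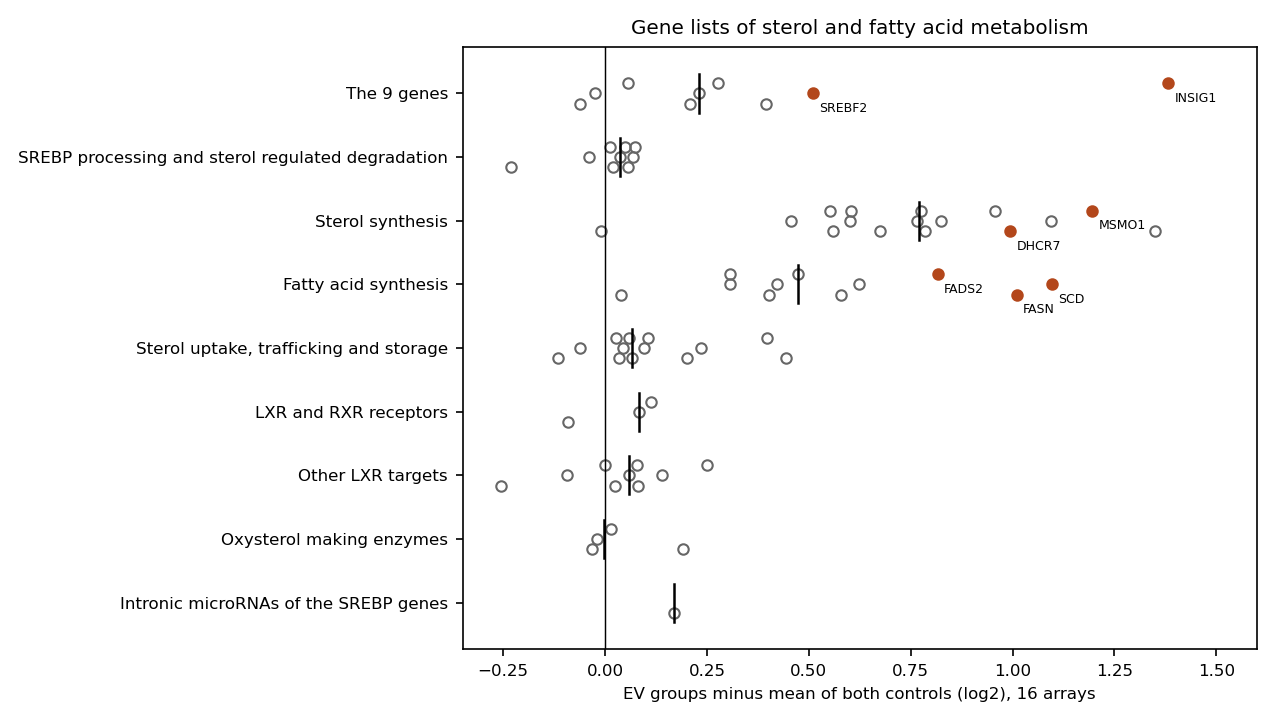
Difference between the EV groups and the mean of both controls in the 16 arrays (log2, x axis) for the 9 genes and for each gene of the lists (rows). Filled and named points passed an adjusted p of 0.05, and bars are medians. The medians are 0.77 for sterol synthesis and 0.47 for fatty acid synthesis, 0.23 for the 9 genes and at most 0.17 in the other lists.

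The 17 genes (0.0923% of 18417) whose 12 EV arrays all lay above the 4 controls of the 16-array set included 7 of this pathway. Besides INSIG1 and SREBF2 of the 9 genes, they were DHCR7, MVD and MVK of the 16 sterol synthesis genes measured. The rest were FASN and FADS2 of the 11 fatty acid genes. These lists were chosen with earlier results of these data known, so the count is a description only. The other 10 belonged to none of the lists and included STC1, which encodes stanniocalcin 1, and PCYT2, an enzyme of phosphatidylethanolamine synthesis; the names were read after the values were seen.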

How the data were processed

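RNA of 18 HUVEC samples was measured on Affymetrix arrays. The deposited values are probe set levels made by the authors with RMA in Affymetrix Expression Console, per the submitters' processing notes. Their versions: not given in the sources used here. The deposited values were taken to be log2 because they span 2.13 to 14.1. RMA is meant to bring arrays to 1 distribution, so a level is relative to its array. The deposited values still differed between arrays, with an SD of 1.56 to 2.25 and a median of 4.86 to 5.31 over all probe sets. The labels name a different RNA kit from the series' design text.

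Of 33297 probe sets, 19460 had 1 gene symbol, 12083 none and 1754 several. The probe set with the highest mean was kept for each of 18417 genes. A mean per group was fitted with limma 3.58.1 in R 4.3.3, and the Benjamini and Hochberg adjustment ran over all genes, with calls at an adjusted p of 0.05. Tables and figures were made in Python 3.11.15 with pandas 2.3.3 and matplotlib 3.10.9. The fit was tested on simulated data. With 3 arrays or fewer in each group, their number limits the precision. Batch and group cannot be told apart, since no batch label was used.

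The 9 genes and all lists were chosen with earlier results of these data known. Genes outside the 9 were named if they were among the 4 with the smallest p of their list against beads in the 16 arrays, were called there, or were among the 5 most correlated with INSIG1, STARD4, ABCA1 or ABCG1. MVD, MVK and PCYT2 fall outside this rule and were chosen after their values were seen. Alternatives covered the arrays, array weights, normalization, dim probes, probe set choice, the spread model, control group and motif strand. The array SD covariate, the second direct repeat and leaving out each of the 16 arrays were added after seeing the data.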

Additional observations from a re-analysis of the deposited data

How the results depend on the processing

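In the 18 arrays none of the 9 genes was called in any comparison, and leaving out any 1 of the 18 arrays left each count at 0. Beside each count of the 9 below stands the share of all 18417 genes called in the same fit. Without the 2 compressed arrays 1 gene was called for EVs (0.0434%), JinB8 CD63 EVs (0.0923%) and JinB8 MHC-1 EVs (0.212%) against beads and 1 among the 6 groups (0.233%). In the 15 arrays these counts were 1 (0.152%), 2 (0.293%), 1 (0.63%) and 2 (0.662%), with 1 for Jurkat CD63 EVs (0.0434%). With the SD covariate 2 were called for EVs against beads (0.282%), 3 for JinB8 CD63 (0.434%), 1 each for JinB8 MHC-1 (1.08%), Jurkat CD63 (0.119%) and Jurkat MHC-1 EVs (0.0434%), and 1 between captures over both donor lines (4.01%).

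Array weights did not converge and called 10.1% to 95.5% of all genes in the comparisons that follow. Against beads they called 5 of the 9 for EVs (44%), 3 for Jurkat CD63 (21.9%), 4 for Jurkat MHC-1 (54.7%), 3 for JinB8 CD63 (18%) and 8 for JinB8 MHC-1 EVs (50.6%). They called 8 for beads against untreated cells (75.3%), 9 between donor lines with MHC-1 capture (59.2%) and 2 over both captures (10.1%). They called 3 and 4 between captures in Jurkat (33.8%) and JinB8 (35.2%), 6 for the interaction (49.4%), 9 among 6 groups (95.5%) and 8 among the EV groups (64.9%). The cause was not tested.

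Within the 16 arrays, both controls as baseline gave 2 in place of 1 for EVs (0.125%) and for JinB8 CD63 EVs (0.195%). Leaving out each of the 16 arrays gave counts of 0 to 1 for EVs against beads (0.00543% to 0.152% of all genes), 1 to 2 against both controls (0.0326% to 0.337%), 0 to 2 for JinB8 CD63 EVs (0.00543% to 0.293%), 0 to 1 for JinB8 MHC-1 EVs (0.00543% to 0.63%) and 1 to 2 among 6 groups (0.0489% to 0.662%).

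The difference from beads reversed for INSIG2 (-0.14 in 16 and -0.014 in 15 arrays), and for SREBF1 and ABCG1 after a further quantile normalization (-0.14 and -0.16). It reversed for SCAP in 16 arrays (-0.0072), 15 arrays (-0.024), after quantile normalization (-0.10), with array weights (-0.087), against untreated cells (-0.036) and with the covariate (-0.048). It reversed for ABCA1 in 16 arrays (-0.13), 15 arrays (-0.092), with array weights (-0.21) and with the covariate (-0.022). Leaving out 1 of the 18 arrays gave ranges of -0.14 to 1.01 for INSIG2, -0.0072 to 0.38 for SCAP and -0.13 to 0.49 for ABCA1, each lowest without bead replicate 3. Read on the given strand only, 1 gene in place of 4 held an NF-Y box. No paired analysis was possible because nothing ties arrays with the same number to a shared culture or day.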
